A study of Mus musculus with 2 samples.

Results

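The mouse Tudor domain genes Tdrd1, Tdrd3, Tdrd5, Tdrd6, Tdrd7, Tdrd9, Tdrd12 and Tdrkh were examined for 5-hydroxymethylcytosine (5hmC), which TET enzymes make by oxidising 5-methylcytosine (5mC). The cells were wild-type (WT) prospermatogonia, fetal male germ cells, taken at E17.5. DNA of 30000 cells, pooled over more than 1 embryo, was extracted, and 50 ng went into 5hmC-Seal, in which 5hmC is tagged with a biotin-bearing glucose and captured on streptavidin. The series holds 1 captured library, whose list of broad peaks was used, and 1 library of the same batch before capture, which was not analysed here. A peak belonged to a gene when it overlapped the annotated gene span or lay within 10 kb of it, which gave 51 of the 108395 peaks to these 8 of 21779 protein-coding genes.

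Tudor domains bind methylated arginine or lysine. In the germline, Tudor proteins hold PIWI proteins, which carry methylated arginines, in granules where piRNAs, the small RNAs that direct transposon silencing, are made. In prospermatogonia this pathway guides new DNA methylation to young transposons, at the stage sampled here. Tdrd3 stands somewhat apart: its protein reads methylated arginine on histones and RNA polymerase and partners a topoisomerase in many tissues.

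With 1 captured library there is no replicate and no test between samples. Read counts are not part of the list, which leaves the depth unknown. Each fold enrichment is the authors' deposited ratio for that peak, and each −log10 q is their caller's value, q being the p adjusted for the number of places tested, so that a higher −log10 q marks a firmer call. Intervals given for shares and densities are exact 95% intervals (Clopper-Pearson for shares, Poisson for densities). They cover counting error only, and neighbouring peaks are not independent. The identity of the cells could not be checked from these values, because a 5hmC peak list gives no expression of cell markers.

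All 8 genes had at least 1 peak in the window and 7 had one in the gene span. Among all protein-coding genes 78.7% had a peak in the window and 61.6% in the span, and among those of 20 kb or more the shares were 89.6% and 83.6%, so the members' counts lie near the background. The members differed widely from each other: Tdrd9 held 16 peaks, Tdrd3 12, Tdrd1 7, Tdrd7 5, Tdrd5 4, Tdrd6 and Tdrd12 3 each, and Tdrkh 1. Tdrd9 and Tdrd3 together held 28 of the 51 peaks. They are also the longest members, and longer members tended to hold more peaks (Spearman rho 0.766 over 8 genes, against 0.674 over all protein-coding genes, as a description across genes of 1 library). For the covered share of the span the members' rho with length was -0.143, against 0.288 over all protein-coding genes.

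Of the 7 members whose transcription starts could be placed, 1 had a peak over a start. This was Tdrd9, whose protein is a helicase that works with the nuclear PIWI protein PIWIL4. Start windows of 300 bases, 250 before a start and 50 after it, were available for 7 of the 8 members in RefSeq sequences of GRCm38.p6, the same build as mm10. There was no entry for Tdrd6. The 4 windows below include the start inside a peak (Tdrd9) and the start nearest to a peak in the CpG-rich part of Tdrd1. The others have a CpG count like that of Tdrd9 but no peak over the window (Tdrd12) or the most CpG of the members (Tdrd5). Each is written 5′ to 3′ on the strand of the gene, and capitals mark CpG, the dinucleotide at which most 5mC and 5hmC occur in mammals.
Tdrd9: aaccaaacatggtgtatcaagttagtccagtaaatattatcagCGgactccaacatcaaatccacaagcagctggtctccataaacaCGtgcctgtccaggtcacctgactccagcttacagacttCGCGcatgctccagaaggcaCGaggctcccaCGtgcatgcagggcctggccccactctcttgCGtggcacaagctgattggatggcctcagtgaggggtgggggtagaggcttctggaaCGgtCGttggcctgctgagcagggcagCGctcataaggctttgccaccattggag
Tdrd1: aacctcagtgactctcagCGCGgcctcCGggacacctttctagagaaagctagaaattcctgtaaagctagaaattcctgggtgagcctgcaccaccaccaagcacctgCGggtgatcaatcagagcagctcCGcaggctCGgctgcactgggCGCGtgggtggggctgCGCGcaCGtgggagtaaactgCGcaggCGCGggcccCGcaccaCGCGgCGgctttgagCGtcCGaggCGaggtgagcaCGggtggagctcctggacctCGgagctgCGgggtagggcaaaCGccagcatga
Tdrd12: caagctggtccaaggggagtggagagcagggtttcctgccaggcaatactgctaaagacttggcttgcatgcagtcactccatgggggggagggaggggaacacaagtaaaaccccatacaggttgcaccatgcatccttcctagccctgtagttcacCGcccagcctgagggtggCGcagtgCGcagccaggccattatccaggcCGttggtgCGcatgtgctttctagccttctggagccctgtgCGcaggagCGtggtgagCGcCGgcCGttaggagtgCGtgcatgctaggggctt
Tdrd5: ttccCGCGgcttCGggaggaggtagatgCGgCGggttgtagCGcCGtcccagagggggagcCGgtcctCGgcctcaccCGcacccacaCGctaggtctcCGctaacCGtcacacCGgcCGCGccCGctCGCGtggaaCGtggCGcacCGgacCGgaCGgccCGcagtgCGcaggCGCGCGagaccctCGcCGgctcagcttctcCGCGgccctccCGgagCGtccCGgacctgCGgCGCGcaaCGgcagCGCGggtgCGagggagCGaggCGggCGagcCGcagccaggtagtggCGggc

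The Tdrd9 window, at chr12:111971309-111971608 on the plus strand, holds 10 CpG and lay wholly within a peak at chr12:111971302-111971625. That peak reached 7 bases past the window on the side before the start and 17 bases on the other, so at 324 bp it was hardly wider than the window. Its fold was 3.14 at a −log10 q of 1.62, below the median fold of 3.35 over all peaks, and it would not pass a −log10 q threshold of 3. A peak overlapped a start window in 4.48% of the 17492 protein-coding genes with such a window, and 1.77% of all 21263 windows were covered completely.

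At Tdrd1, whose protein scaffolds the PIWI protein PIWIL2 in granules between mitochondria, 3 start windows are listed and none was covered. The window printed above, chr19:56826025-56826324 on the plus strand, holds 25 CpG, and the nearest peak began 713 bases downstream of its start. For the overlapping window at chr19:56825959-56826258, with 20 CpG, the distance was 779 bases. Another start further into the gene has 3 CpG in its window, and a peak began 476 bases downstream of it. Of all start windows, 7.06% had a peak closer to their start than the 713 bases seen for the Tdrd1 window printed here.

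The remaining starts lay kilobases from any peak, which is common: the median distance over all start windows was 5.67 kb. Of all start windows, 69.7% had a peak closer to their start than Tdrd5 and 61.1% than the printed Tdrd12 window. The share was 48.2% for Tdrkh, 44.9% for Tdrd3 and 25.2% to 43.0% for the windows of Tdrd7. Tdrd12, which encodes another helicase-like protein of the piRNA pathway, has 11 CpG in the printed window at chr7:35537666-35537965 on the minus strand, and its nearest peak began 8772 bases downstream. Its second listed start, 29 bases away, has 9 CpG. Tdrd5, needed in mouse for transposon silencing and for the granules of later sperm cells, has 48 CpG in its window at chr1:156303299-156303598 on the minus strand, more than 98.5% of all start windows. Its nearest peak was 12479 bases downstream. The Tdrd3 window holds 43 CpG with the nearest peak 4663 bases upstream, and the window of Tdrkh, which encodes a protein of the mitochondrial surface that binds PIWI proteins, holds 25 CpG with the nearest peak 5286 bases upstream. For Tdrd7, whose protein is found in the granules of later sperm cells and is also needed in the lens, the 3 windows hold 4, 32 and 32 CpG. One peak served all 3, at 2186 bases downstream of the first start and 3777 and 4311 bases upstream of the others.

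Over all protein-coding genes the chance of a peak at the start varied with CpG count. A peak overlapped 4.37% of 6035 windows with 0 to 4 CpG (3.87 to 4.92), 14.3% of 3161 windows with 5 to 9 CpG (13.1 to 15.5) and 2.53% of 4426 windows with 10 to 19 CpG (2.09 to 3.04). For 20 to 29 CpG it was 0.367% of 4358 windows, and for 30 or more 0.305% of 3283. The Tdrd9 window stood at the low end of the class of 10 to 19 CpG. The windows of Tdrd5 and Tdrd3 and 2 of those of Tdrd7 were in the top class, where 10 windows in all had a peak, so nearly all starts of that class lack one.

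**Figure D1:**
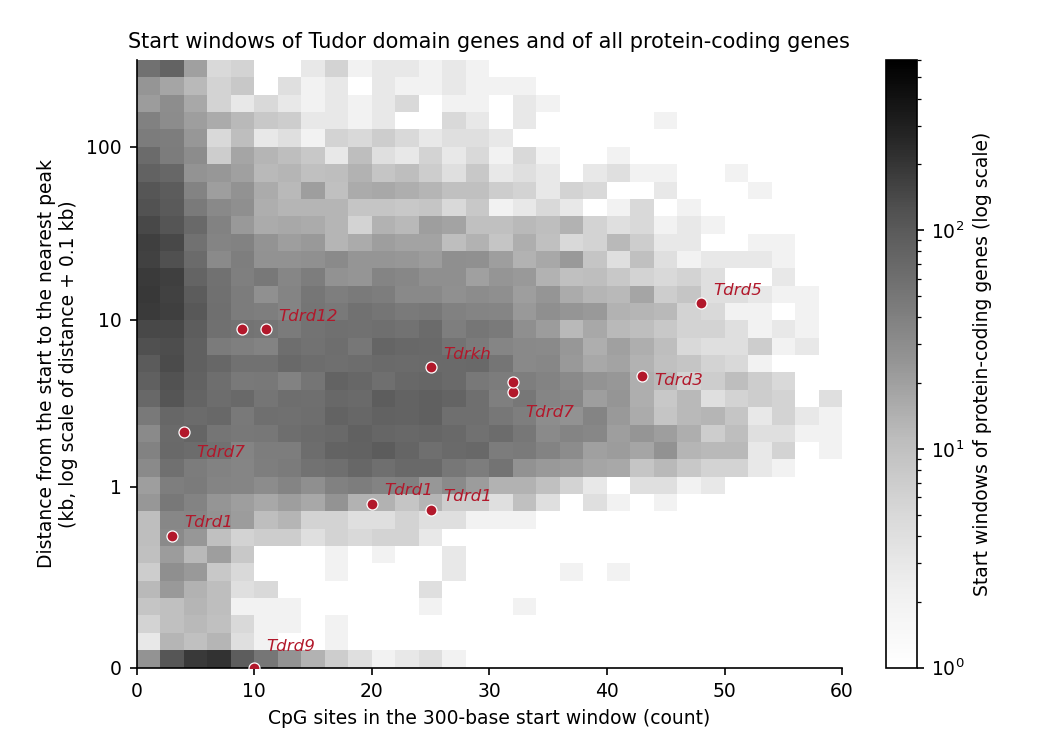
CpG sites in each 300-base start window (horizontal, count) against the distance from the start to the nearest peak (vertical, kb, log scale of distance plus 0.1 kb). Red points are the windows of 7 Tudor domain genes, and the grey cloud counts all windows of protein-coding genes, with distances above the axis range placed in its top row. Tdrd9, with 10 CpG, sits at distance 0, and Tdrd5, with 48 CpG, lies 12479 bases from a peak.

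Some germline genes that are silenced by DNA methylation in somatic cells carry an E-box, CACGTG, or an E2F site at their start, which repressor complexes of the Polycomb type can bind. CACGTG reads the same on both strands and was present in 7.84% of all start windows. The printed Tdrd9 window contained it at the positions beginning 165 and 95 bases before the start. Both overlapping Tdrd1 windows contained 1 shared copy, 77 bases before the start in the printed window. The E2F core TCCCGC, searched on both strands, was in 25.8% of all windows. Among the members it occurred 1 time in the Tdrd5 window and 2 times in that of Tdrd3, and no member window held both motifs. A peak overlapped 2.52% of the 1666 windows with CACGTG and 4.14% of the 19597 without it. For the E2F core it was 1.55% of 5479 windows with it and 4.87% of 15784 without it. Both motifs contain a CpG, and the share of windows with a peak varied with CpG count. The windows were not compared at equal CpG count, so these differences cannot be ascribed to the motifs. The motif matches are descriptions of the letters and not of binding.

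Within the gene, Tdrd9 was the member with the most peaks. Its span, chr12:111971488-112068854, holds 97.4 kb, and all 16 of its peaks lay in or across the edge of the span, none wholly in the flanks. Peaks followed each other at a median gap of 5.01 kb, the smallest 1.18 kb and the largest 10.8 kb, and 14.9% of the span was covered, against a median of 3.67% over protein-coding genes of 20 kb or more. Of those genes, 88.1% had a lower covered share. The highest peak, at chr12:112020089-112022487, had a fold of 6.50 and a −log10 q of 7.92, lay near the middle of the gene and was 2399 bp wide. Next came the peak at chr12:112068217-112068686, at the far end of the gene, with a fold of 4.61, and the one at chr12:112046597-112047187, with 3.95. The widest, at chr12:112030975-112033677, had 2703 bp at a fold of 2.93. The other genes within the Tdrd9 span, Rd3l and the long non-coding Gm46381, had none of these peaks on them.

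Tdrd9 also lay in a peak-rich region. Its span had 1.64 peaks per 10 kb (0.939 to 2.67), against 1.44 (1.13 to 1.81) over the 250 kb beyond each side of its window, where the median for protein-coding genes of 20 kb or more was 0.580. The intervals overlap and the density of the gene was not set apart from its surroundings at this precision.

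The span of Tdrd1, chr19:56826171-56870012, was covered to 21.6% by 7 peaks, a share above that of 94.9% of protein-coding genes of 20 kb or more. All 7 lay inside the span. The highest was the narrow peak at chr19:56831188-56831534, with a fold of 4.28 and a −log10 q of 3.21. Most of the coverage came from wider peaks of lower fold. The widest, at chr19:56848775-56851998, had 3224 bp at a fold of 3.57. The peak that follows the first listed starts, at chr19:56826988-56829509, had 2522 bp at a fold of 3.41. Density was 1.60 peaks per 10 kb (0.642 to 3.29), against 1.20 (0.916 to 1.54) in the surroundings.

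The largest covered share of the family, 27.3%, was that of Tdrd6, a shorter gene of 16.5 kb at chr17:43615334-43631846, and it came from 1 peak. Its protein is a component of the granules of round sperm cells in mouse. The peak, at chr17:43624126-43628634, was 4509 bp wide, wider than 99.2% of all peaks, at a fold of 3.48 and a −log10 q of 2.05. Of all protein-coding genes, 93.7% had a lower covered share. The other 2 peaks of the window lay on the neighbours. One, at chr17:43606394-43608131 with a fold of 3.49, was on Pla2g7, a phospholipase gene, and the other, at chr17:43641652-43642358 with a fold of 3.36, was on Slc25a27, a mitochondrial carrier gene. The last of these reached into the 10 kb flank by part of its length and lay 9806 bases from Tdrd6.

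Tdrd7, at chr4:45965027-46034766, was covered to 5.69% by 4 peaks, and another lay 8038 bases downstream. The first, at chr4:45967521-45968520, had a fold of 3.14, and the second, at chr4:45989006-45990750, had 3.26 and the largest width of the gene, 1745 bp. A stretch of 41.5 kb without a peak followed. The last 2 that overlapped the gene, at chr4:46032213-46032797 and chr4:46034129-46035116, had folds of 3.49 and 3.83 and stood together at its far end. The latter ran past the end of the span. The flanking peak, at chr4:46042804-46043055 with a fold of 3.38, lay on Tmod1, which encodes the actin-capping tropomodulin.

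**Figure D2:**
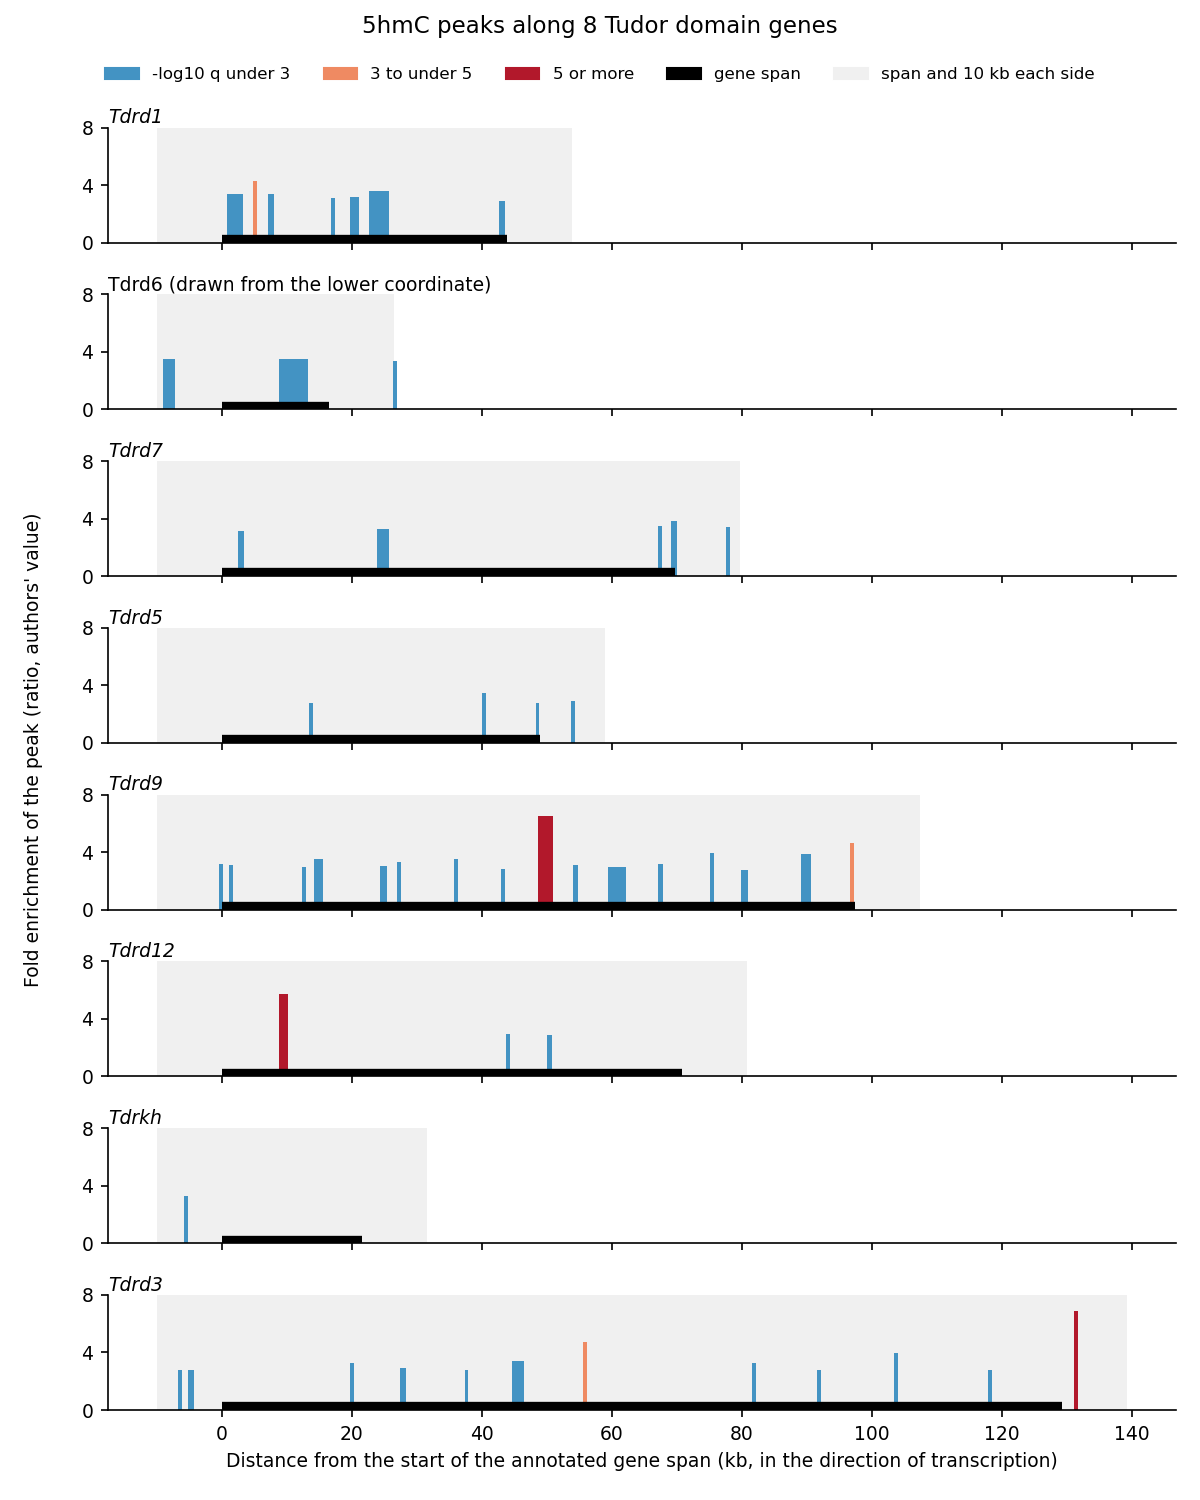
Peaks along each of the 8 genes, by distance from the start of the annotated span (kb, in the direction of transcription, or from the lower coordinate for Tdrd6), with bar height the fold enrichment. Bars are drawn to width with a minimum of 0.6 kb, coloured by −log10 q; black is the gene span and grey the span with 10 kb on each side. Peaks run through the whole of Tdrd9, Tdrkh has 1 peak and none in its span, and the 3 red bars are in Tdrd9, Tdrd12 and beyond the end of Tdrd3.

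The other 3 piRNA pathway members held 4 peaks or fewer each. Tdrd12, at chr7:35466941-35537784, held 3 peaks over 70.8 kb. It was covered to 3.37%, near the median of 3.67% over protein-coding genes of 20 kb or more. The peak nearest its start, at chr7:35527592-35528943, was strong, with a fold of 5.74 and a −log10 q of 6.43, 1352 bp wide and higher than 91.9% of all peaks. The peaks at chr7:35493600-35493893 and chr7:35487020-35487760 had folds of 2.95 and 2.85. Tdrd12 had 0.423 peaks per 10 kb (0.0873 to 1.24), against 1.10 (0.829 to 1.43) in its surroundings. Among protein-coding genes of 20 kb or more, 4.36% fell further below their surroundings, though the intervals overlap.

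Tdrd5, at chr1:156255296-156304304 on the minus strand, was covered to 3.08% by 3 peaks. The highest, at chr1:156263622-156264245, had a fold of 3.48, and the others, at chr1:156290209-156290869 and chr1:156255595-156255820, had 2.76 and 2.77. A further peak lay 4799 bases downstream, at chr1:156249987-156250497, with a fold of 2.89. None of the 4 reached a −log10 q of 3. Of protein-coding genes of 20 kb or more, 45.8% had a lower covered share than Tdrd5, and 54.2% a lower density than its 0.612 peaks per 10 kb.

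Tdrkh, at chr3:94413243-94434854, had no peak in its 21.6 kb. Among protein-coding genes of 20 kb or more, 83.6% had one. A count of 0 in that span allows up to 1.71 peaks per 10 kb by the Poisson interval, and the surroundings had 0.620 (0.421 to 0.880), so a low density was not detectable at this length. Its single peak, at chr3:94407711-94407958, lay 5285 bases upstream at a fold of 3.25, and was 248 bp wide. The next peak outside the window was 12.4 kb from the gene and had a fold of 2.74, so the choice of 10 kb decides whether Tdrkh has 1 peak or more, and a choice of 5 kb would leave it with none. Oaz3, an antizyme gene of the testis whose end overlaps that of Tdrkh, had no peak of the window either.

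Tdrd3, at chr14:87416178-87545508, is the longest member at 129 kb and was covered to 3.97%, near the median for genes of 20 kb or more. It held 9 peaks in the span and 3 in the flanks, 2 of these upstream at a fold of 2.77 each, the nearer at chr14:87411050-87411920. The highest peak of all 8 genes lay 1849 bases beyond its far end, at chr14:87547357-87547809, with a fold of 6.89 and a −log10 q of 8.53. Inside the gene the highest were at chr14:87472004-87472245, with a fold of 4.72, and chr14:87519852-87520100, with 3.94. The widest, at chr14:87460920-87462764, had 1845 bp at a fold of 3.41.

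Tdrd3 lay in a peak-poor region by the same measure. Its span had 0.696 peaks per 10 kb (0.318 to 1.32), against 0.180 (0.0823 to 0.342) in its surroundings, which hold 9 peaks and no other protein-coding gene. The intervals overlap narrowly, which does not decide whether the densities differ, and the difference was not tested. The span count includes weak calls at chr14:87453635-87454055 and chr14:87507848-87508210, each with a −log10 q of 1.02. The −log10 q values of the peaks in the surroundings are not given here. Of protein-coding genes of 20 kb or more, 81.5% had a lower difference between span and surroundings, those below their surroundings included. Over the whole family, 4 of 8 spans (Tdrd1, Tdrd6, Tdrd9 and Tdrd3) had more peaks per 10 kb than their surroundings, against 41.8% of all protein-coding genes and 46.9% of those of 20 kb or more. This count is near the background.

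**Figure D3:**
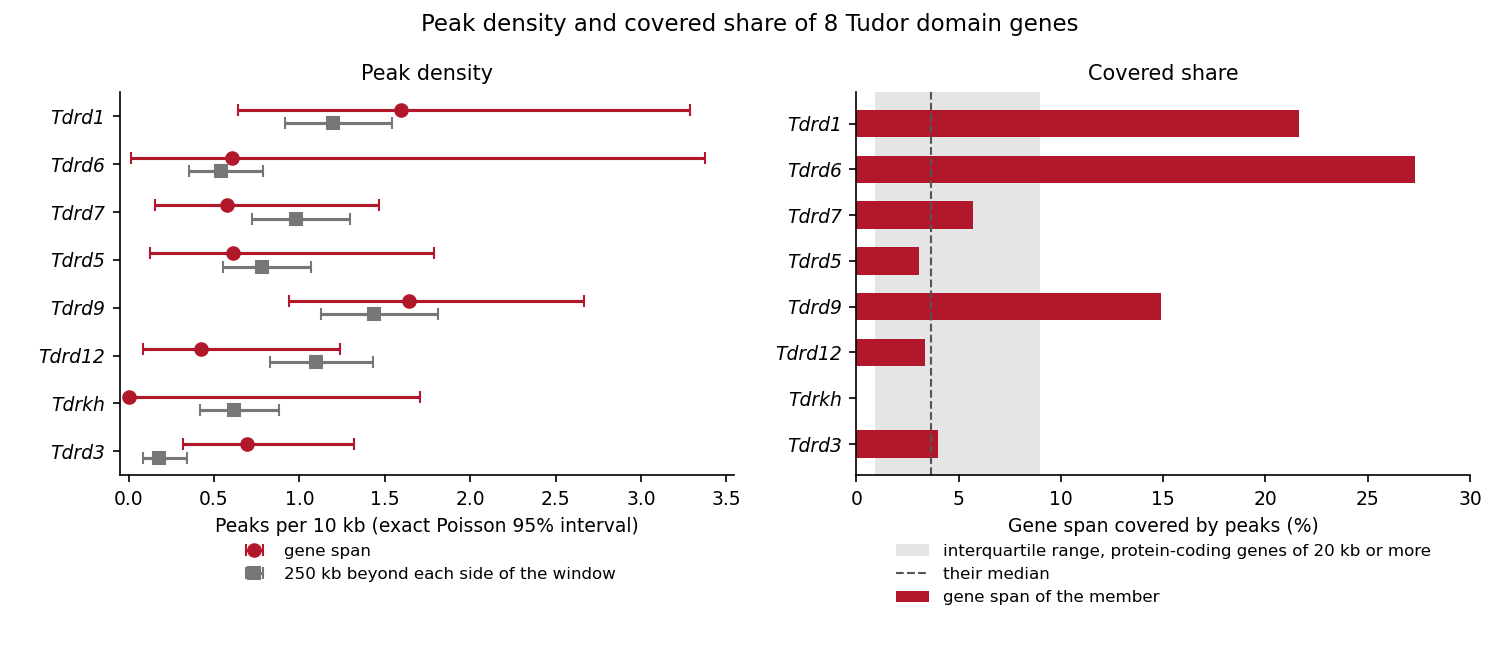
Left, peaks per 10 kb in each gene span (red circles) and in the 250 kb beyond each side of its window (grey squares), with exact Poisson 95% intervals. Right, percent of each span covered by peaks (red bars) against the interquartile range (grey band) and median (dashed line) of protein-coding genes of 20 kb or more. Tdrd6, Tdrd1 and Tdrd9 stand beyond the band, at 27.3%, 21.6% and 14.9%, and Tdrkh is at 0. Tdrd6, at 16.5 kb, is shorter than the genes that give the band.

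The members' median covered share was 4.83%, against 2.25% over all protein-coding genes and 3.67% over those of 20 kb or more. Their median density was 0.609 peaks per 10 kb, against 0.408 and 0.521. Both values lie within the interquartile range of the genes of 20 kb or more (0.921% to 8.98%, and 0.185 to 1.09 peaks per 10 kb).

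Most of the 51 peaks had a −log10 q under 3. Their median fold was 3.26 and their median width 624 bp, against 3.35 and 636 bp for all peaks. Of them 3, or 5.88% (1.23 to 16.2), had a −log10 q of at least 5, against 11.9% of all peaks. At least 3 was reached by 6, or 11.8% (4.44 to 23.9), against 24.2% of all peaks. The 3 strong peaks belonged to Tdrd9, Tdrd12 and Tdrd3. A strong peak in the window was thus found for 3 of 8 members, 37.5% (8.52 to 75.5), against 16.3% of all protein-coding genes and 23.4% of those of 20 kb or more. Both background shares lie inside the members' interval. At the level of peaks, the share of all peaks with a −log10 q of at least 5 lies inside the members' interval, while that for at least 3 lies just above it, though neighbouring peaks are not independent. Another 6 peaks were at a −log10 q of 1.02, close to the lowest value in the whole list, 1.01. Most of these belonged to Tdrd3, both of its upstream peaks included, and the others to Tdrd5 and Tdrd9.

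**Figure D4:**
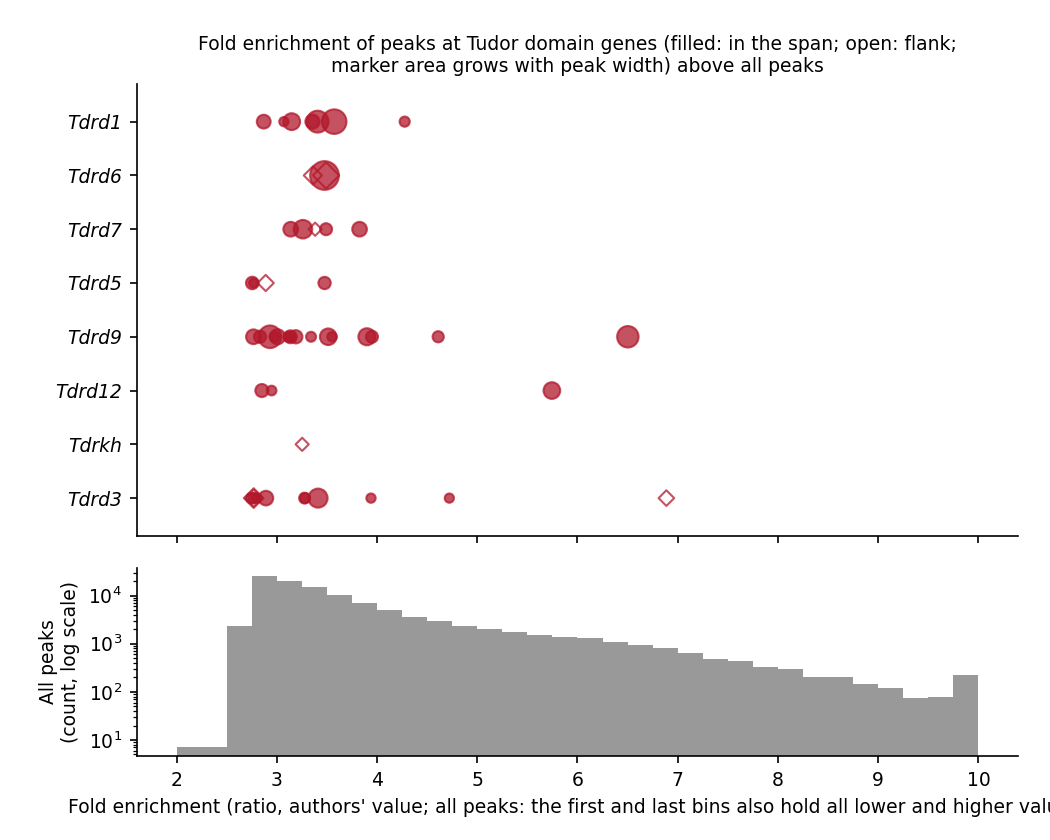
Fold enrichment of each of the 51 peaks by gene (filled circles in the span, open diamonds in the flank, marker area growing with peak width), above the number of all 108395 peaks per fold class (log scale). Most peaks of the members lie between 2.75 and 4, as most peaks of the library do, and 3 lie above 5, in Tdrd9, Tdrd12 and Tdrd3.

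Of the 51 peaks, 43 overlapped a span, or 84.3% (71.4 to 93.0). By the same rule the share was 69.1% over all protein-coding genes and 81.4% over those of 20 kb or more, with a peak counted for each gene it is near. The 8 spans make up 75.7% of the length of their windows, so the members' share lies near what length and the longer genes show. Except at Tdrd6, the span is longer than both flanks together, which held 8 peaks over the family. Along the 6 genes with a strand and peaks in the span, cut into 3 parts of equal length, 14 of 42 peaks had their middle in the part nearest the start, 13 in the middle part and 14 in the part farthest from it, which are similar counts. The remaining peak, at the Tdrd9 start, had its middle just before the span. Tdrd9 gave 16 and Tdrd3 9 of the 42 peaks, so the pooled counts do not describe each gene. Where another gene was annotated at a peak, in 3 of the 51, it was Pla2g7, Slc25a27 or Tmod1, and each such peak lay in a flank. The windows reach 18 other genes in all. Among those without a peak of the window are Ccdc186 and Vwa2 beside Tdrd1, the non-coding Gm52728 within Tdrd7, and Atp5mpl, Rd3l and Gm46381 beside or within Tdrd9. Among them are also the cystine transporter gene Slc7a9, Nudt19 and the pseudogene Gm18558 at Tdrd12, Lingo4, the non-coding 1700040D17Rik, Oaz3 and the mitochondrial ribosomal gene Mrpl9 at Tdrkh, and the pseudogene Gm33121 within Tdrd3.

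Other genes of the same pathway and domain were counted by the same rule. Of 22 protein-coding piRNA partners, such as PIWI proteins and their binding factors, 21 had a peak in the window, and the median covered share was 5.58%. The highest folds within spans were 9.50 in Mov10l1, which encodes the helicase that feeds precursors into piRNA production, 8.51 in Henmt1, whose enzyme methylates the ends of piRNAs, 6.70 in the chaperone gene Hsp90aa1 and 6.60 in Mael, which encodes a transposon-silencing factor. Wdr77, which encodes the partner of the arginine methyltransferase PRMT5, had no peak. Of 23 further genes of proteins with Tudor domains, 21 had a peak, with a median covered share of 2.84%. The highest folds were 7.35 in Phf20, 5.28 in Spin1, a histone reader gene, 5.09 in Rnf17, a Tudor gene of the male germline, and 4.75 in Lbr, a lamin receptor gene. Mtf2, which encodes a Polycomb partner, and Phf20l1 had none. The members' 8 of 8 stands beside these counts, and all 3 are close to the background of 78.7% and 89.6%.

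Beside the 1 of 7 members with a peak at the start, 3 of 16 piRNA partners with start windows and 1 of 19 further Tudor genes had one, against 4.48% of all protein-coding genes. These counts are small, and whether they differ from that share was not tested. The 4 partner and further Tudor genes with such a peak are named because the count is small, after their values were seen. The start window of Dnmt3l, the cofactor of de novo methylation, has 6 CpG and was covered completely at a fold of 3.04. That of Gtsf1, a PIWI-binding factor gene, has 13 CpG and was covered to 68.7% at a fold of 3.38. The Mael window, with 24 CpG, was covered to 38.7% at a fold of 6.60. Akap1, whose Tudor protein anchors kinases to mitochondria, has overlapping windows with 4 and 5 CpG, covered to 26.3% and 29.3% at a fold of 2.94. Tdrd9 thus had a fold between those of Dnmt3l and Gtsf1, with complete coverage as in Dnmt3l. Of these folds, only those of Gtsf1 and Mael were above the median of 3.35 over all peaks.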

How the data were processed

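The deposited file is a broadPeak list of the captured library, on mm10. MACS2 2.1.0 is the peak caller among the tools in the submitters' processing notes. Those notes also list Bowtie2 2.5.0 and Trim Galore, SAMtools 1.16.1, deepTools 3.5.1 and bedtools 2.27.1, with no settings. Whether the library before capture served as control, and how reads from repeats were placed, is not stated in those sources. The authors deposited for each peak a fold enrichment (a ratio), a −log10 p, a −log10 q and a score derived from the q.

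Gene spans came from RefSeq GRCm38.p6 (49603 of 49997 genes used; those placed in the first 3 Mb, which is a gap on all chromosomes but Y, or on no nuclear chromosome were left out). A peak counted by an overlap of at least 1 bp. Members, lists and comparisons were chosen with earlier results of these data known; the start windows and the surroundings were added after the members' peaks had been seen. Every member, every overlapping gene and, from each list, the 4 genes with the highest fold in the span and up to 4 without a peak were named, except 1 overlapping gene that is not reported here. Dnmt3c, on the list of partners, is a pseudogene (Dnmt3b-ps1) in the table and was not counted. The interval functions were tested on simulated data. Python 3.11.15, pandas 2.3.3 and SciPy 1.17.1 were used.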

Additional observations from a re-analysis of the deposited data

How the results depend on the processing

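The peak threshold had the widest effect. At a −log10 q of at least 3 the 8 genes kept 6 peaks, in 4 genes, and the median covered share was 0.0936%. At a threshold of 5 the genes kept 3 peaks, in 3 genes, a median covered share of 0% and 66.7% of the peaks in the spans. Each of the 8 per-gene peak counts was lower by more than 1.5 times at either threshold, while the highest fold of a gene was the same wherever one was left (4 genes and 3 genes). In those genes the peak with the highest fold also had the highest −log10 q, so the threshold could not change this value. Merging peaks within 1 kb or using the peak midpoint changed none of the 4 summary values by more than 1.5 times. Within the windows, merging could join only the upstream flank peaks of Tdrd3, which lay 0.973 kb apart. It therefore could not change the covered share and says little about stability. For 5 kb flanks and for the span alone, only the peak count and the number of genes with a peak were recomputed. Neither changed by more than 1.5 times. The peak count ran from 43 to 50 over these settings, and Tdrkh was the gene lost with 5 kb flanks and with the span alone. The depth is unknown, so a start without a peak may hold 5hmC below the caller's limit. No paired analysis was possible because there is 1 captured library.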
